A study of Mus musculus with 8 samples.

Results

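The 31 genes described here form a list for mitochondrial fatty acid oxidation and the steps that lead to ketone bodies. They were listed by name and by step of the pathway, not by their expression: 7 genes of fatty acid activation, 4 of the carnitine shuttle, 7 acyl-CoA dehydrogenases, 8 of the trifunctional protein and the later steps of the spiral, 3 of electron transfer and 2 of ketogenesis. All 31 were found among the 19752 genes that could be named on the arrays, and all 31 were among the 14066 genes bright enough to test. Rap1-deficient and wild-type liver were compared to ask whether loss of RAP1, a telomeric protein of the shelterin complex that also binds along chromosome arms, changes the transcripts with which liver burns fat.

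Liver RNA from 4 Rap1 -/- mice and 4 wild-type mice was hybridized to Agilent mouse arrays read in a single colour, 1 mouse per array. All 8 mice were 10 weeks old and of a mixed C57BL6/129SV background (90%:10%). In the knockout the floxed gene was deleted in the whole body by a cre recombinase driven by the EIIa promoter in the early embryo, and the cre allele was later bred out of the colony. Neither sex nor feeding is labelled. The study describes its young mice as females that had not yet become obese and worked with fed as well as fasted livers, so these arrays may hold either. RNA integrity numbers lay between 6.5 and 8.5 per the labels, without a value for each mouse.

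Liver takes up fatty acids, couples them to coenzyme A and carries long chains into mitochondria as carnitine esters. There an acyl-CoA dehydrogenase fitting the length of the chain starts each round of the oxidation spiral, and the electrons pass through the electron transfer flavoprotein to the respiratory chain. The acetyl-CoA released is oxidized further or, during fasting, turned into ketone bodies for other tissues. Many of these genes are known targets of the nuclear receptor PPARα and its coactivator PGC1α, which act on them during fasting.

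The arrays were checked before the genes were compared. Levels are the log2 of the processed signal less the array's 75th percentile. Of the 2 probes for Terf2ip, which encodes RAP1, 1 had a wild-type level of 0.14 ± 0.09 and a knockout level of -6.28 ± 0.43 (SD, n = 4 each), with 0 of 4 knockout arrays reading it above background, and the other was higher in knockout (0.28 ± 0.18 against -0.92 ± 0.22, SD, n = 4 each). All 10 hepatocyte markers were well above background on all 8 arrays. Their summed level lay between 12.70 and 12.87 in wild-type and between 12.66 and 12.68 in knockout arrays, so the genotypes did not overlap. The brightest genes weigh most in such a sum. Taken singly, 5 of the 10 markers were higher in knockout and 5 lower, with a median log2 difference of -0.003. The part of these markers in the results below was not tested. The 75th percentile of the signal, to which each array was scaled, lay between 179 and 209 in wild-type and between 220 and 227 in knockout arrays. Wild-type arrays filled positions 1 and 2 and knockout arrays positions 3 and 4 of both slides, so position and genotype cannot be told apart. In whole liver, fewer cells of a type and less RNA per cell cannot be told apart either.

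Promoter sequence was at hand for 25 of the 31 genes in the RefSeq annotation of GRCm38.p6. The 250 bases before each start were searched on both strands, and each motif was counted per gene. The hexamer AGGTCA, which nuclear receptors recognize, was held by 6 of 25 genes (24%, against 15.8% of 27025 genes with a promoter): Slc27a2, Acsm1, Cpt1a, Acadm, Acadvl and Echs1. A direct repeat of that hexamer with 1 base between, AGGTCANAGGTCA, the kind of element that PPARα binds, was held by 0 of 25 genes and by 0.0407% of all genes, and the longer element TCAAGGTCA, which contains the hexamer, by 0 of 25 and 0.422%. The unit of the telomeric repeat, TTAGGG, was held by 4 of 25 genes (16%, against 10.66% of all genes), namely Acsl1, Acsm5, Slc25a20 and Eci1. GGGCGG, the GC box, was held by 14 of 25 (56%, against 35.4%), and the median share of G or C was 58.8% in these genes and 52% in all genes. The 27025 genes were not limited to those bright enough to test in liver, and shares among tested genes were not computed. The motif hits are matches of letters in a short window and say nothing of which protein is bound.

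Shown here are the windows of Slc27a2, Cpt1a and Acadm, which hold the hexamer and are among the genes the study chose for qPCR, of Eci1, whose groups did not overlap below, and of Hadhb. Capitals mark AGGTCA or TTAGGG on either strand, and in Hadhb they mark GGGCGG. Each runs 5′ to 3′ along the gene's own strand.

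Slc27a2, chr2:126552774-126553023, plus strand: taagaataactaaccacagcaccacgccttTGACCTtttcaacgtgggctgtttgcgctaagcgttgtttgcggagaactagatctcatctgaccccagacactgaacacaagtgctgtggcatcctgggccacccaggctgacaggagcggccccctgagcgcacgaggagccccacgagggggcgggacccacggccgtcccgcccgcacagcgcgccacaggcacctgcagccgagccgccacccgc

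Cpt1a, chr19:3323051-3323300, plus strand: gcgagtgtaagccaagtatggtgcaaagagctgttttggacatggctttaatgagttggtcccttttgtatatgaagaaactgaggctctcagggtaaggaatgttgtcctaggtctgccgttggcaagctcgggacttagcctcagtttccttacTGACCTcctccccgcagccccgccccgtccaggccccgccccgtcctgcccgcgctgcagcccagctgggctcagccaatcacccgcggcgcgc

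Acadm, chr3:153944644-153944893, minus strand: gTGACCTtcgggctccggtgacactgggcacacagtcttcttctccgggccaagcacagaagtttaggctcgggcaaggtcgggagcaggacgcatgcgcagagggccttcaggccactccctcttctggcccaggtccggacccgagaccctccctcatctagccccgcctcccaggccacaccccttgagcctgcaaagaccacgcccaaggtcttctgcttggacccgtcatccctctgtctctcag

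Eci1, chr17:24426433-24426682, plus strand: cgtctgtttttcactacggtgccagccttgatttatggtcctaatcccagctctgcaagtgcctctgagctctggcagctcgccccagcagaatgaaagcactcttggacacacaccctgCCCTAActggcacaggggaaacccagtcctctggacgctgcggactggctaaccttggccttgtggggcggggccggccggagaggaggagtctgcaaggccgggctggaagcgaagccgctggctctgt

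Hadhb, chr5:30155003-30155252, plus strand: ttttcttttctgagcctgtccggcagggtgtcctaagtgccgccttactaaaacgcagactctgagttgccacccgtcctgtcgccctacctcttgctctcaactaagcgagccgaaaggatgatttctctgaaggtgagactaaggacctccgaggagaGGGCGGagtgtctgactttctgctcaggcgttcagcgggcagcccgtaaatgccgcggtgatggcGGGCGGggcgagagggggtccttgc

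Hadhb was chosen because its window is also that of its partner: Hadha and Hadhb, the subunits of the trifunctional protein, lie head to head, and 228 of the 250 bases before each start are the same bases read on opposite strands.

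No gene of the pathway passed the test between the genotypes. A difference is the knockout mean less the wild-type mean of the log2 levels, so that 1 is a doubling. Differences ran from -0.39 (Cpt1b) to 0.40 (Acad9), 23 of 31 genes were above 0 and 8 below, and the median was 0.14. Over all 14066 genes the median was 0.02 and 56.1% were above 0. With limma, 0 of 31 genes passed an adjusted p under 0.05, as did 2 genes or 0.0142% of all genes tested. At an unadjusted p under 0.05, 2 of 31 genes were higher (Acat1 and Acad9) and 0 were lower, while 4.01% of all genes were higher and 2.35% lower. The groups did not overlap, with every knockout above every wild-type array, in 3 of 31 genes (Acat1, Acad9 and Eci1), and 0 lay wholly below, against 3.01% of all genes above and 1.3% below. The 95% interval spanned 0 for 29 of 31 genes, and for none of the 31 did it reach a change of 1 on the log2 scale in either direction. It extended 0.271 to each side at the median, from 0.195 (Acat1) to 0.563 (Cpt1b).

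**Figure D1:**
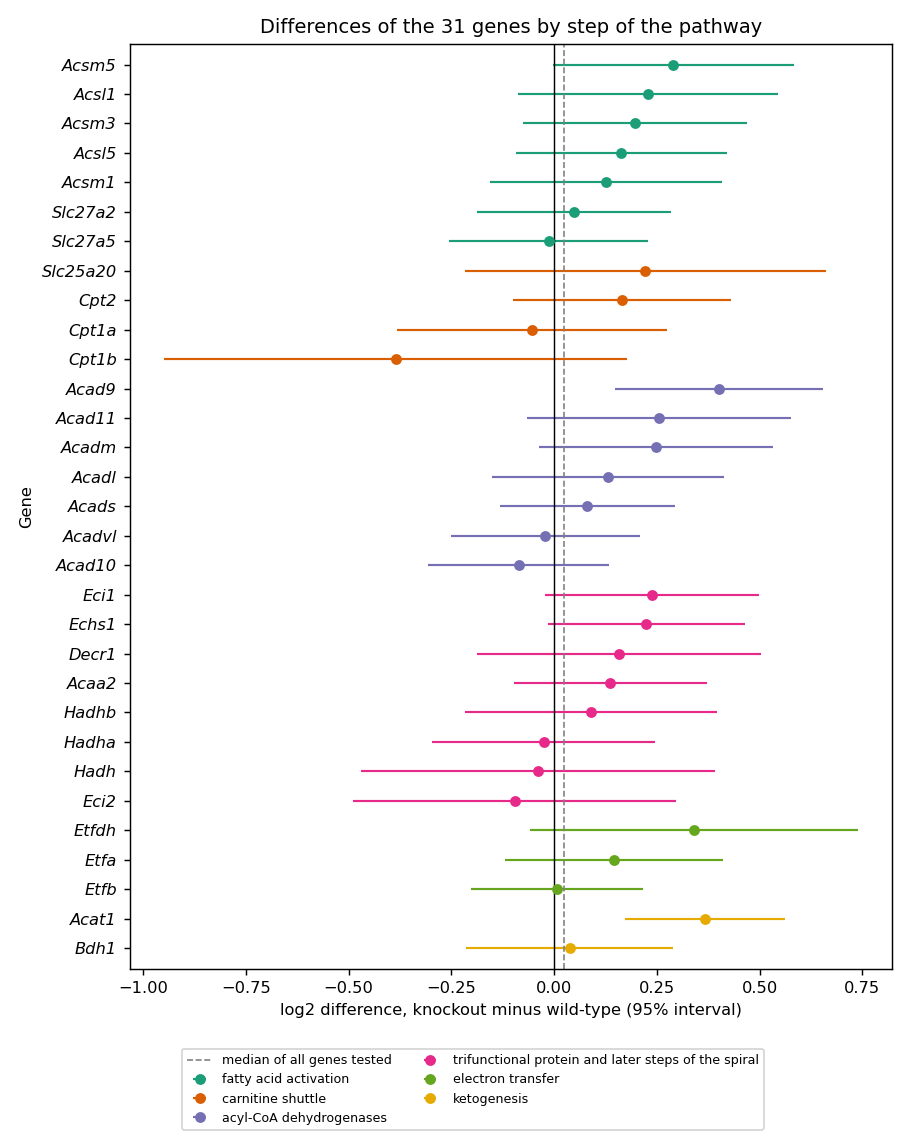
Difference between knockout and wild-type liver (log2, x axis) for each of the 31 genes (y axis), coloured by step, with limma's 95% interval from 4 arrays a genotype. Only the intervals of Acad9 and Acat1 lie wholly above 0, and the dashed line is the median of all genes tested, 0.02.

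The size of the median depended on 1 wild-type mouse and on the normalization. Without wild-type replicate 1 the median of the 31 genes was 0.07, and without any other array it lay between 0.12 and 0.18. With all 8 arrays it was 0.080 with quantile normalization of the processed signal and 0.082 with cyclic loess, and it was 0.085 on slide 2 alone. With each array's own median as the scale in place of its 75th percentile, the median of all genes moved to 0.18 and that of the 31 genes to 0.30, so the distance between them stayed at 0.11. Calls at an unadjusted p under 0.05 over all genes were split 564 higher to 330 lower, 869 to 97 with the array medians as the scale, and 365 to 476 with the percentile taken over probes above background on all arrays, so the split of directions depends on the scale.

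Activation joins a fatty acid to coenzyme A. Of its 7 genes, 6 were above 0, with a median of 0.16, and none had an unadjusted p under 0.05. Acsm5, a medium-chain acyl-CoA synthetase, was at 3.72, 3.82, 4.04 and 3.66 in wild-type mice 1 to 4 and at 4.37, 3.94, 4.05 and 4.05 in knockout mice 1 to 4. Knockout replicate 1 was the highest, and wild-type replicate 3 lay among the other knockout arrays. The difference was 0.29 ± 0.13 (SE; limma, adjusted p = 0.783). Acsm3, of the same family, was at 3.00, 3.11, 3.44 and 3.24 in wild-type and at 3.49, 3.23, 3.39 and 3.47 in knockout mice. Wild-type replicates 3 and 4 lay within the range of the knockouts. The difference was 0.20 ± 0.12 (SE; limma, adjusted p = 0.825). Its other probe was at -0.04 ± 0.13 (SE), with the opposite sign. The Acsm genes are close relatives, and whether their probes read each other's transcripts was not examined.

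Slc27a2 takes up and activates long and very long chains and is among the transcripts the study assayed by qPCR. In livers of young fed females the study reported Slc27a2, Cpt1a and Cpt2 lower in knockout, and Acadm and Acadvl unaffected. From expression profiles of young female liver it also reported fatty acid metabolism and PPAR signalling as deregulated when tested as sets of genes. No test over a set of genes was made here. On the arrays the level of Slc27a2 was 8.01, 8.16, 8.04 and 8.31 in wild-type and 8.28, 8.11, 8.08 and 8.25 in knockout mice. The knockouts lay within the range of the wild types. The difference was 0.05 ± 0.10 (SE; limma, adjusted p = 0.958), with a 95% interval from -0.19 to 0.29. Slc27a5, which activates bile acids as well as fatty acids, differed by -0.01 ± 0.11 (SE). The long-chain acyl-CoA synthetases Acsl1 and Acsl5 differed by 0.23 ± 0.14 and 0.16 ± 0.11, and Acsm1 by 0.13 ± 0.12 (SE).

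The carnitine shuttle carries activated long chains across the mitochondrial membranes. Its 4 genes split evenly, 2 above and 2 below 0, with a median of 0.06. Cpt1a, the liver form of the rate-limiting carnitine palmitoyltransferase of the outer membrane, was at 4.75, 5.18, 4.95 and 4.98 in wild-type and at 5.2, 4.94, 4.62 and 4.88 in knockout mice. The highest and the lowest of the 8 arrays were both knockouts. The difference was -0.05 ± 0.14 (SE; limma, adjusted p = 0.971), with a 95% interval from -0.38 to 0.28, and it was 0.10 on slide 1 and -0.21 on slide 2. The other probe of Cpt1a differed by -0.06 ± 0.13 (SE).

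Cpt2, the transferase of the inner membrane, was at 5.06, 5.31, 5.19 and 5.46 in wild-type and at 5.50, 5.50, 5.25 and 5.42 in knockout mice. Wild-type replicates 2 and 4 lay among the knockouts. The difference was 0.17 ± 0.12 (SE; limma, adjusted p = 0.840), with a 95% interval from -0.10 to 0.43, and its other probe differed by 0.25 ± 0.20 (SE). Slc25a20, the carrier that exchanges acylcarnitine for carnitine, differed by 0.22 ± 0.19 (SE).

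Cpt1b, the form known from muscle, was dim. It was at -1.70, -0.89, -2.0 and -1.15 in wild-type and at -2.19, -1.73, -1.79 and -1.57 in knockout mice, and it was well above background on all 8 arrays. Wild-type replicates 2 and 4 were the highest. The difference was -0.39 ± 0.25 (SE; limma, adjusted p = 0.8294), and -0.08 ± 0.34 (SE) by its other probe. Of 8 skeletal muscle markers, 5 (Ckm, Actn3, Myl1, Mylpf and Myh1) were above background on no array, and the summed level of the 8 lay between -2.30 and -1.36 in wild-type and between -2.45 and -0.51 in knockout arrays.

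The acyl-CoA dehydrogenases take the first step of each round. Of 7 genes 5 were above 0, with a median of 0.13. Acad9, a dehydrogenase that also helps to assemble complex I of the respiratory chain, was at 2.85, 2.75, 2.99 and 2.67 in wild-type and at 3.27, 3.05, 3.38 and 3.18 in knockout mice. The highest wild-type array lay just under the lowest knockout. The difference was 0.40 ± 0.11 (SE), or 1.32-fold, with an unadjusted p of 0.00594 and an adjusted p of 0.770 (limma), and a two-sided exact permutation test gave p = 0.0286, its smallest possible value with these group sizes. The differences within slides were 0.36 and 0.44, and the gene ranked 99 by p among the 14066.

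Acadm, the medium-chain dehydrogenase, was at 5.92, 6.26, 6.25 and 6.49 in wild-type and at 6.49, 6.44, 6.49 and 6.50 in knockout mice. The knockouts lay close together, and wild-type replicate 4 was level with them. The difference was 0.25 ± 0.13 (SE; limma, adjusted p = 0.789), 0.37 on slide 1 and 0.13 on slide 2, and 0.15 without wild-type replicate 1. Acadvl, for very long chains, was at 7.66, 7.77, 7.79 and 7.97 in wild-type and at 7.72, 7.75, 7.72 and 7.92 in knockout mice. Its difference was -0.02 ± 0.10 (SE; limma, adjusted p = 0.990), with a 95% interval from -0.25 to 0.21.

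The 95% intervals of the other dehydrogenases spanned 0. Acadl, for long chains, differed by 0.13 ± 0.12 (SE) in a fit without knockout replicate 2, whose spot the scanner software had called an outlier. Acads, for short chains, differed by 0.08 ± 0.09, and Acad10 and Acad11, which are less well studied, by -0.09 ± 0.10 and 0.26 ± 0.14 (SE).

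The later steps of the spiral hydrate, oxidize and cleave the chain, and the isomerases and the reductase among them handle double bonds of unsaturated chains. Of 8 genes 5 were above 0, with a median of 0.11. Eci1, an enoyl-CoA isomerase, was at 5.26, 5.63, 5.43 and 5.70 in wild-type and at 5.74, 5.73, 5.72 and 5.80 in knockout mice. The groups did not overlap, though wild-type replicate 4 and knockout replicate 3 were 0.02 apart as printed. The difference was 0.24 ± 0.11 (SE), with an unadjusted p of 0.0676 and an adjusted p of 0.783 (limma). The exact permutation p was 0.0286, which only restates that the groups did not overlap. The difference was 0.16 without wild-type replicate 1 and 0.30 without wild-type replicate 4.

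Echs1, the short-chain enoyl-CoA hydratase, was at 5.79, 5.91, 6.02 and 5.66 in wild-type and at 6.12, 5.99, 6.16 and 6.01 in knockout mice. Wild-type replicate 3 lay between knockouts. The difference was 0.22 ± 0.11 (SE; limma, adjusted p = 0.783). The trifunctional subunits Hadha and Hadhb differed by -0.03 ± 0.12 and 0.09 ± 0.14 (SE), and the thiolase Acaa2 by 0.14 ± 0.10 (SE). Decr1, the dienoyl-CoA reductase, differed by 0.16 ± 0.15, Hadh, a hydroxyacyl-CoA dehydrogenase, by -0.04 ± 0.19 and the isomerase Eci2 by -0.10 ± 0.17 (SE).

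Electron transfer takes the electrons of the dehydrogenases to ubiquinone. All 3 genes were above 0, with a median of 0.15, and none had an unadjusted p under 0.05. Etfdh, the membrane enzyme that reduces ubiquinone, was at 5.05, 5.08, 5.15 and 5.69 in wild-type and at 5.34, 5.90, 5.56 and 5.53 in knockout mice. Wild-type replicate 4 stood above the other wild types and above all knockouts except replicate 2. The difference was 0.34 ± 0.18 (SE; limma, adjusted p = 0.792), 0.55 on slide 1 and 0.13 on slide 2. The flavoprotein subunits Etfa and Etfb differed by 0.15 ± 0.12 and 0.01 ± 0.09 (SE). The other probe of Etfa differed by 0.33 ± 0.14 (SE), with an unadjusted p of 0.0432 and an adjusted p of 0.809 over all probes (limma).

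Acat1, the mitochondrial acetoacetyl-CoA thiolase, acts both in the making of ketone bodies and in their use. It was at 4.39, 4.56, 4.48 and 4.48 in wild-type and at 4.77, 4.87, 4.87 and 4.88 in knockout mice. The gap between the groups was wider than the range of either. The difference was 0.37 ± 0.09 (SE), or 1.29-fold, with an unadjusted p of 0.00215 and an adjusted p of 0.770 (limma), and the exact permutation p was 0.0286. It was 0.34 on slide 1 and 0.39 on slide 2, and the gene ranked 37 by p among the 14066. Bdh1, which interconverts the ketone bodies acetoacetate and hydroxybutyrate, differed by 0.04 ± 0.11 (SE), and by 0.08 and 0.11 in its other probes.

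**Figure D2:**
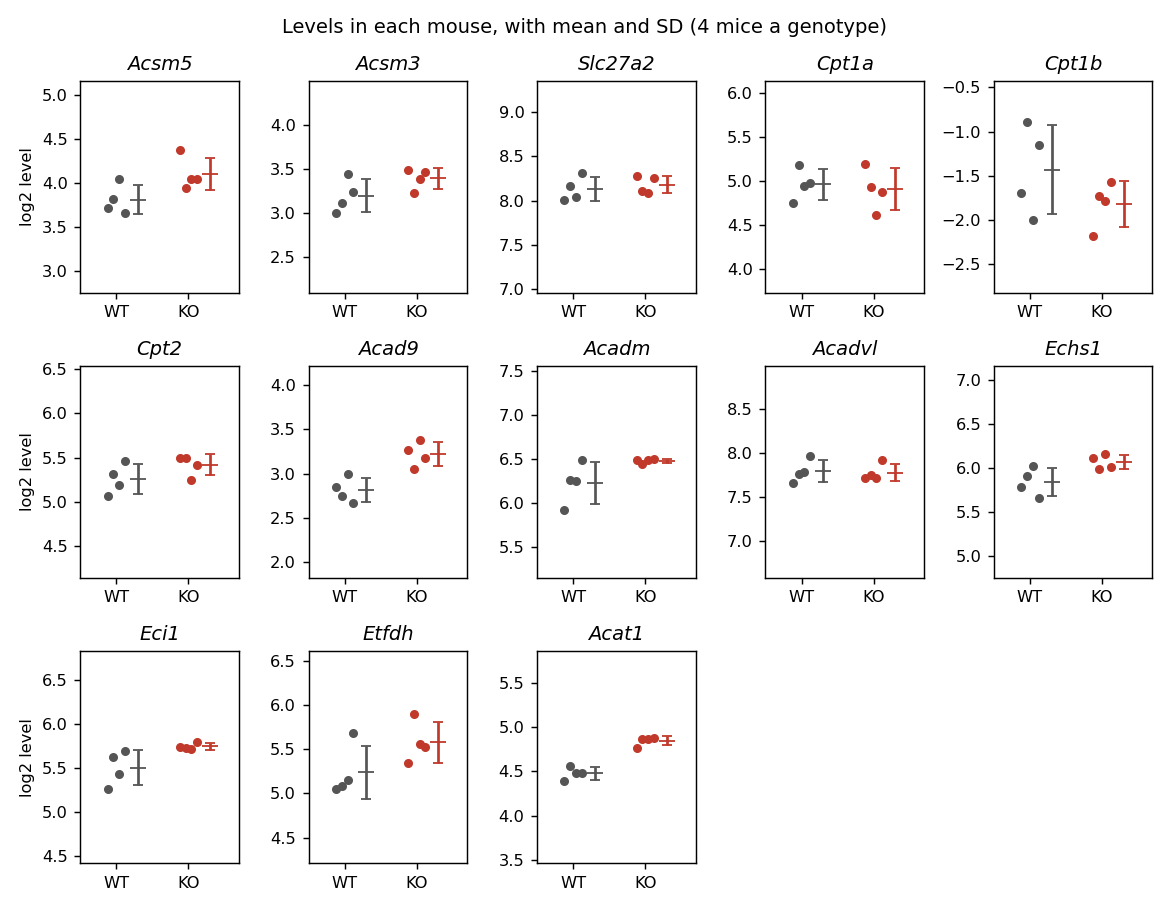
Level (log2 signal relative to the array's 75th percentile, y axis, each panel spanning the same height) of 13 genes in 4 wild-type (grey) and 4 knockout (red) livers, 1 point a mouse, with mean and SD beside them. The groups are apart in Acad9, Eci1 and Acat1 and overlap in the other 10 panels.

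The level of the pathway as a whole also differed between mice of 1 genotype. In wild-type replicate 1, 30 of the 31 genes were under their mean over the arrays, with a median deviation of -0.22. In wild-type replicates 2 and 3, 18 and 22 of 31 were under it, with median deviations of -0.025 and -0.104. In wild-type replicate 4, 20 of 31 were above it, with a median deviation of 0.06. Knockout arrays had 19 to 26 of 31 genes above the mean and median deviations from 0.02 to 0.11. Wild-type replicate 1 held the lowest of all levels in 16 of 31 genes. Over all genes its median deviation was -0.07 and 38.1% of genes were above their mean, so the whole array was shifted the same way, by less. Among wild types alone it was the lowest in 21 of the 30 genes measured on all arrays (36.2% of all genes), and wild-type replicate 4 was the highest in 14 of 30 (31% of all genes).

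**Figure D3:**
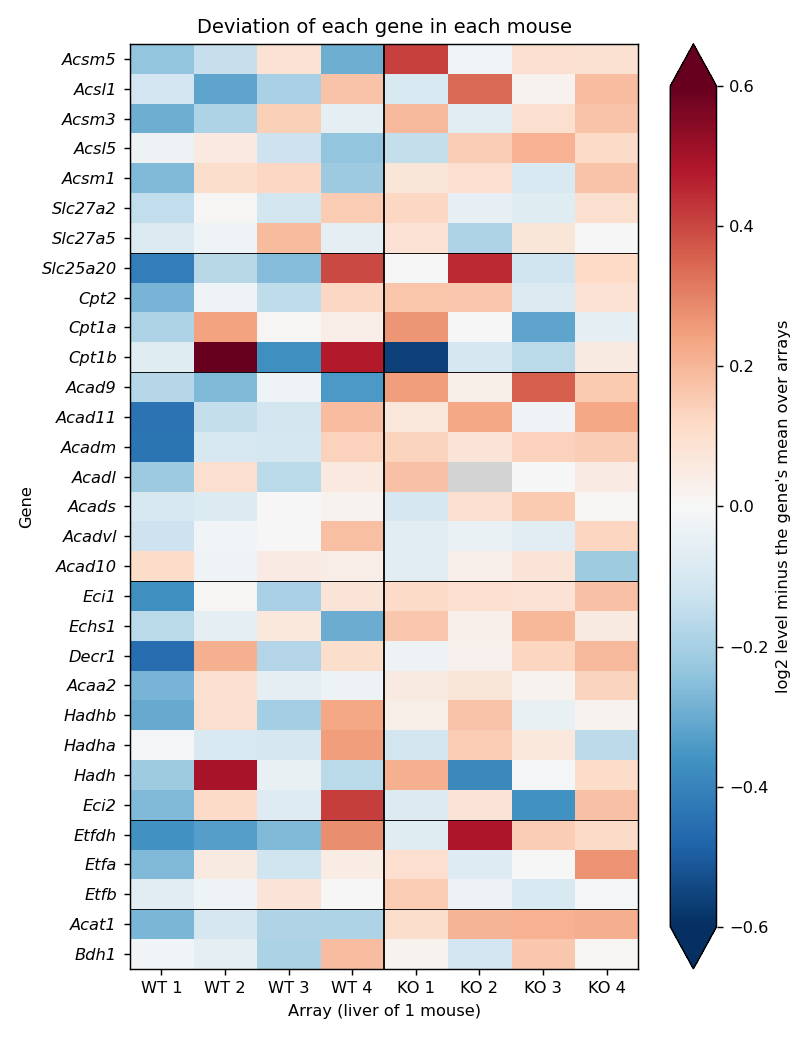
Deviation of each gene (y axis, grouped by step with thin lines) from its mean over arrays in each mouse (x axis), log2, blue below and red above, grey where the spot was an outlier. The column of wild-type replicate 1 is below the mean in 30 of 31 genes.

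Most genes of the pathway had a smaller spread among knockouts than among wild types. The SD was smaller in knockout for 24 of 30 genes, against 46.6% of all genes, with a median SD of 0.12 in knockout and 0.17 in wild-type liver. Over all genes the medians were 0.21 and 0.19. Acadm had an SD of 0.24 among wild types and 0.03 among knockouts, Eci1 0.20 and 0.04, and Decr1 0.30 and 0.10. Cpt1a went the other way, with 0.17 and 0.24. The count rested on wild-type replicate 4: without it the SD was smaller in knockout for 15 of 30 genes, and without wild-type replicate 1 for 23 of 30. No test of the spread was made.

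**Figure D4:**
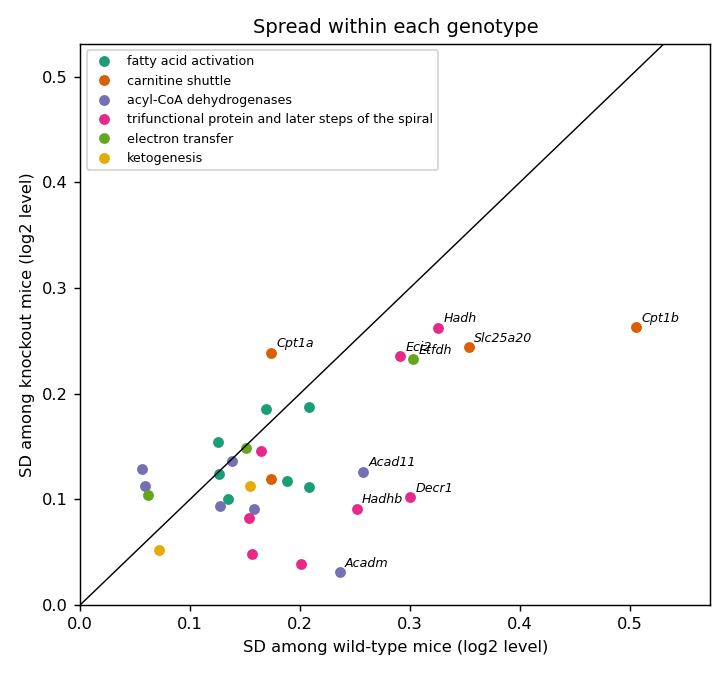
SD among the 4 wild-type mice (x axis) and the 4 knockout mice (y axis; 3 for Acadl) of the log2 level of each gene, 1 point a gene, coloured by step, with the line of equal spread. Of the 30 genes measured on all arrays 24 lie under the line, and Cpt1b has the largest SD, 0.51 among wild types.

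Genes around the pathway were read from fixed lists. Of 41 related genes (other transporters, synthetases, dehydrogenases and the oxidation of branched and odd chains) 35 could be tested, 22 were above 0 with a median of 0.11, 2 were higher at an unadjusted p under 0.05 and 0 lower. These were Mcee and Mmut (0.35 ± 0.11 and 0.23 ± 0.10, SE; limma, adjusted p = 0.770 and 0.779), consecutive enzymes of propionyl-CoA breakdown. Slc27a4, another transporter of fatty acids, differed by -0.39 ± 0.19 (SE). Of 25 genes of peroxisomal oxidation 20 were above 0, with a median of 0.12, 4 were higher at an unadjusted p under 0.05 and 1 lower. The higher ones included Acox2 (0.49 ± 0.13), Cat (0.37 ± 0.11) and Nudt7 (0.74 ± 0.23; SE, limma, adjusted p = 0.770 each). The lower one was Acox3 (-0.48 ± 0.18, SE; limma, adjusted p = 0.770). Over all genes tested, 4.01% were higher and 2.35% lower at such an unadjusted p. Of 43 subunits of the respiratory chain, which takes up the electrons, 42 were above 0 with a median of 0.13, and 3 were higher at an unadjusted p under 0.05: Ndufa10 (0.30 ± 0.12), Ndufb3 (0.22 ± 0.09) and Ndufs8 (0.28 ± 0.12, SE), all of complex I. Wild-type replicate 1 had the lowest median deviation of the 8 arrays in each of these 3 lists (-0.13, -0.18 and -0.23).

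The regulators lay on both sides of 0. Of 18 genes of the PPAR and PGC1 circuit 8 were above 0 and 10 below, with a median of -0.02, and 0 had an unadjusted p under 0.05 (limma). Ppara was at 6.16, 6.55, 6.43 and 6.16 in wild-type and at 6.76, 6.11, 6.06 and 6.38 in knockout mice. The wild types lay within the range of the knockouts, and the difference was 0.00087 ± 0.17 (SE; 95% interval -0.39 to 0.40). Ppargc1a, which encodes PGC1α, was at 1.45, 2.02, 1.80 and 1.29 in wild-type and at 1.5, 0.73, 1.84 and 2.17 in knockout mice, with the lowest and the highest array both knockouts. Its difference was -0.08 ± 0.30 (SE; 95% interval -0.76 to 0.60). By qPCR the study reported both Ppara and Ppargc1a lower in the liver of young knockout females, and by western blot less of both proteins in knockout liver. In its expression profiles of fasted young livers, Ppargc1a was the most reduced of the liver transcription factors examined. Whether those profiles are the arrays read here cannot be told from the labels. Why the array values differ from these reports was not tested. Esrrg, a nuclear receptor related to the oestrogen receptors, differed by 0.60 ± 0.27 (SE; limma, adjusted p = 0.783), the smallest p of the list. Of 14 transcripts that respond to fasting 7 were above 0, with a median of -0.02, and of 13 lipogenic transcripts of the fed state 8 were, with a median of 0.03; in both lists 0 had an unadjusted p under 0.05.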

How the data were processed

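Total RNA of 8 livers was labelled with Cy3 and read on Agilent arrays. Per the file headers, spots were extracted with Feature Extraction 10.7.3.1, and the deposited processed signal is an intensity on a linear scale, background-subtracted without scaling from array to array. A table of log2 values was deposited by the authors too, for which the submitters' processing notes name limma; they differed from normexp (offset 50, on the median spot and background intensity) with quantile normalization by a median of 0.00103, their column medians were 6.39 to 6.40, and they served as an alternative.

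Here outlier spots were left out, repeated spots averaged, and each array's 75th percentile subtracted on the log2 scale. On each array 50.03% to 65.3% of probes exceeded background clearly and 0 spots reached saturation. Precision is limited by having 4 arrays per genotype. Probes were named through RefSeq accessions of GRCm38.p6 (46.8% of 55681 probes) and tested if well above background on at least 4 of 8 arrays. The brightest probe stood for a gene. Of the 31 genes, 10 had several probes. Levels of different probes were not compared.

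Genotypes were compared with limma 3.58.1 in R 4.3.3 (lmFit, eBayes, no covariates) over 14066 genes with Benjamini-Hochberg adjustment. Exact permutation tests of single genes (two-sided) ran over the 70 partings of the arrays, with a smallest p of 0.0286. Groups of 4 that do not overlap always give this p, so it adds nothing to the lack of overlap. The procedure was tested on simulated data. The 22 alternatives changed the background correction, scale, filter, choice of probe, variance, slide, pairing or set of arrays.

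The genes, lists and tests were chosen with earlier results of these data known. Levels in every mouse are given for the 2 genes with the smallest p in each step of over 3 genes and 1 in the others, for genes whose groups did not overlap, and for those standing for transcripts of the study's qPCR. Of related lists, up to 3 genes with the smallest p are named, with Ppara, Ppargc1a, Acox3 and G6pc. Marker lists of 10 cell types were read as counts and sums.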

Additional observations from a re-analysis of the deposited data

Results flagged for a closer look

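In 3 of the 61 groups of 4 arrays (31 genes in 2 genotypes, without the knockouts of Acadl, where 3 arrays were measured), 1 array stood apart from the other 3 by Dixon's ratio of its gap to the whole range, above the 95% critical value for 4 samples. Chance gives this in about 1 in 20 groups. Acat1 in knockout liver had a ratio of 0.879, with knockout replicate 1 at 4.77 and the others from 4.87 to 4.88. Acadvl in knockout liver had a ratio of 0.852, with knockout replicate 4 at 7.92 and the others from 7.72 to 7.75. Etfdh in wild-type liver had a ratio of 0.845, with wild-type replicate 4 at 5.69 and the others from 5.05 to 5.15. Without these arrays the differences were 0.39 for Acat1, -0.07 for Acadvl and 0.49 for Etfdh.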

How the results depend on the processing

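No gene of the 31 passed the adjusted threshold under any of 22 alternatives, where the lowest adjusted p was 0.654 (limma). Acat1 had an unadjusted p under 0.05 in 21 and Acad9 in 20 of them, the exceptions being slide 1 alone for both and slide 2 alone for Acad9. The count of genes with such a p, 2 as reported, was 7 with each array's median as the scale, 5 with trended and robust variance, 0 on slide 1 and 1 on slide 2 (2 against 2 arrays each). Over all 14066 genes the calls were 564 higher and 330 lower as reported, 869 and 97 with the array medians, and 628 and 269 with trended and robust variance. Leaving out 1 array gave counts from 2 to 8, with 8 without wild-type replicate 4 and 6, of which 1 was lower, without wild-type replicate 3. Over all genes these settings gave 503 higher and 298 lower, and 563 and 358. The median of 0.14 became 0.30 with the array medians as the scale and ran from 0.07 (without wild-type replicate 1) to 0.18 (without wild-type replicate 2) when 1 array was left out; it was 0.080 with quantile normalization of the processed signal, 0.082 with cyclic loess and 0.085 on slide 2. The cause of these changes was not tested. Whether replicate numbers pair the mice cannot be told from these data. Same-numbered arrays of the 2 genotypes correlated at 0.091, -0.180, -0.068 and 0.097 in their deviations. Differently numbered ones correlated from -0.39 to 0.231. With the replicate block the counts were 0 and 2 and the median 0.15.

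The sign held under every alternative for 18 genes and turned in at least 1 for 13. With each array's median as the scale these were above 0: Slc27a5 (0.145), Cpt1a (0.106), Acadvl (0.137), Acad10 (0.0723), Hadha (0.133), Hadh (0.120) and Eci2 (0.0627). On slide 1 alone Slc27a5 (0.00654), Cpt1a (0.104), Acadvl (0.0177), Hadha (0.0723) and Eci2 (0.0723) were above and Acsl5 (-0.0106) and Bdh1 (-0.0103) below 0. On slide 2 alone Hadh (0.151) was above and Slc27a2 (-0.00904), Slc25a20 (-0.0682), Hadhb (-0.026) and Etfb (-0.0903) were below 0. Slc27a2 was at -0.0132 with cyclic loess and at -0.0149 with normexp and quantile normalization. Etfb was at -0.0556, -0.0252 and -0.0353 and Bdh1 at -0.0219, -0.0417 and -0.0323 with cyclic loess, normexp and quantile, and quantile normalization of the processed signal; in the authors' value table they were at -0.0106 and -0.0391. Etfb was at -0.0284 with the percentile over probes above background on all arrays, and Slc27a5 at 0.0277 with the mean of its probes. When 1 array was left out, Slc27a5 ran from -0.0443 to 0.0484, Cpt1a from -0.150 to 0.0434, Acadvl from -0.0675 to 0.0357, Hadha from -0.0803 to 0.0544, Hadh from -0.117 to 0.120, Eci2 from -0.200 to 0.0271, Etfb from -0.042 to 0.0388 and Bdh1 from -0.0187 to 0.106.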

Other observations

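Transcripts outside the pathway that mark feeding also differed between mice of the same genotype, for Cyp4a10 mainly among wild types. Cyp4a10, a fatty acid hydroxylase that is a well-known target of PPARα, was at 4.90, 5.25, 4.41 and 6.79 in wild-type and at 6.12, 6.26, 6.25 and 6.33 in knockout mice. Wild-type replicate 4 was the highest and the other 3 wild types were the lowest of all 8, with the knockouts close together between them. The difference was 0.90 ± 0.43 (SE; limma, adjusted p = 0.783). G6pc, which also responds to fasting, ran from 4.77 to 7.14 in knockout and from 5.39 to 7.14 in wild-type mice. The 14 transcripts that respond to fasting had median deviations of -0.31, 0.07, -0.53 and 0.62 in wild-type replicates 1 to 4, and of -0.08, 0.22, -0.24 and 0.42 in knockout replicates 1 to 4. The 13 lipogenic transcripts had -0.41, 0.63, 0.30 and -0.57 in wild-type and 0.09, -0.40, -0.11 and 0.49 in knockout replicates. The carnitine shuttle had -0.23, 0.11, -0.21 and 0.26 in wild-type and 0.08, 0.08, -0.14 and 0.07 in knockout replicates. The genes of fatty acid activation had -0.15, -0.03, 0.09 and -0.06 in wild-type replicates, so not every step of the pathway followed the order of the shuttle. The feeding state of each mouse is not given by the labels.

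The summed markers of other cells overlapped between the genotypes. Summed neutrophil markers lay between 2.82 and 4.21 in wild-type and between 2.71 and 3.37 in knockout arrays, and the median deviation of that list was highest, 0.97, in wild-type replicate 1, where the pathway was lowest. Summed cholangiocyte markers lay between 1.87 and 2.33 in wild-type and between 2.16 and 3.14 in knockout arrays. Summed markers lay between 7.05 and 7.46 in wild-type and 6.71 and 7.43 in knockout arrays for Kupffer cells and macrophages, between 5.33 and 6.04 and 5.36 and 5.64 for T, NK and B cells, between 6.46 and 6.90 and 6.46 and 6.99 for sinusoidal endothelium, and between 7.21 and 7.49 and 7.40 and 7.52 for stellate cells. They lay between 0.87 and 2.07 and 1.23 and 3.32 for adipocytes, of whose markers Lep and Ucp1 were above background on no array, and between 2.72 and 3.11 and 3.08 and 3.14 for exocrine pancreas. The part of these markers in the differences of the pathway was not tested.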
